A study of Mus musculus with 6 samples.

Results

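The interleukin-1 (IL-1) family and the inflammasome were followed in mouse aorta through 10 genes: the cytokines Il1a, Il1b, Il18 and Il33, the antagonist Il1rn, the receptors Il1r1, Il1r2 and Il1rl1, and the inflammasome genes Nlrp3 and Casp1. They were taken by symbol from a table of 55401 Ensembl gene IDs, each symbol matched 1 ID, and all 10 passed the filter on low counts among 19833 genes tested. Aortas of ApoE-/- mice, which lack the apolipoprotein E that clears remnant lipoproteins, were compared with aortas of IL16-/-ApoE-/- mice (double mutants), which also lack the CD4-binding cytokine interleukin-16. Every animal of either group carried the ApoE-/- genotype and received high-fat food for 24 weeks, starting at an age of 8 weeks. There were 3 libraries in each group. Strain, sex, the deleted parts of the 2 genes and whether each library is 1 animal were not given in the sources used here. The p-values therefore measure the spread between these libraries only, which may be technical. Values are listed below in the order of libraries 1, 2 and 3 of each group.

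IL-1 alpha and IL-1 beta signal through the receptor IL-1R1, a step blocked by the antagonist IL-1Ra (Il1rn) and buffered by the decoy receptor IL-1R2. IL-1 beta and IL-18 are made as precursors that caspase-1 cleaves once a sensor such as NLRP3 has assembled an inflammasome, whereas IL-33 is a nuclear protein of stromal and endothelial cells that acts on ST2 (Il1rl1) when released. In atherosclerotic arteries, macrophages that take up cholesterol crystals are a known source of IL-1 beta.

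The libraries held 65730552 to 85568269 counts in ApoE-/- and 42861980 to 47208779 counts in the double mutants, without overlap. Il16 was at 28.3, 28.7 and 15.1 CPM (counts scaled to a common library size with TMM factors) in ApoE-/-, against 7.93, 12.1 and 12.2 CPM in IL16-/-ApoE-/- (log2 fold change -1.16, adjusted p = 0.163 by edgeR's quasi-likelihood test). The double mutants lay below ApoE-/- but kept counts of the gene, and without the position of the deletion this checks the labels only in part. Apoe, disrupted in both groups, still had 45.0, 24.9 and 20.9 CPM in ApoE-/-, against 138, 183 and 137 CPM in IL16-/-ApoE-/-, and passed as higher in the latter (log2 fold change 2.34, edgeR adjusted p = 0.0369). ApoE-/- 1 stood apart from the other 5 libraries, with 474 CPM of the X-inactivation RNA Xist against 0.497 to 6.21 CPM and 0.143 CPM of the Y-linked gene Ddx3y against 70.1 to 136 CPM. Its sex-linked transcripts thus differed from those of the other 5, and the part of this in the values below was not tested. The 3 calls of members that edgeR made in any fit came without this library. Variation between libraries, as the biological coefficient of variation, was 0.590 in ApoE-/- and 0.209 in double mutants. Defining markers of aortic smooth muscle (Myh11, Acta2), endothelium (Pecam1, Cdh5) and adventitial fibroblasts (Pdgfra, Dcn) were present in all 6 libraries. The 8 kidney tubule markers listed summed to 0.385 to 1.28 CPM in ApoE-/- and to 487 to 542 CPM in IL16-/-ApoE-/-, and their part in the values below was not tested.

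Among the 10 genes, the data separated the groups by 2 transcripts: Il1b, higher in every double mutant library, and Il1r1, lower in every double mutant library. Neither passed the threshold of 0.05 adjusted over all genes, and the other 8 genes had overlapping groups. By edgeR's quasi-likelihood test 0 of 10 passed in either direction, with adjusted p from 0.227 (Il1r1) to 0.910 (Il1rl1), against 1.2% of all genes tested (1.14% higher and 0.0605% lower). At an unadjusted p under 0.05 there was 1, Il1r1, against 15.9% of all genes (8.87% higher and 7.03% lower). DESeq2 and limma-voom also called 0 of 10, against 8.56% (6.23% higher, 2.33% lower) and 2.06% of all genes (1.95% higher, 0.116% lower). Limma-voom with sample weights called Il1b higher and Il1r1 lower, 2 of 10, against 16.9% of all genes (9.39% higher, 7.5% lower). Groups without overlap were found for 2 of 10 members, 20.0%, against 26.4% of all genes tested (14.9% with the double mutants higher and 11.5% lower), a share no larger than the background. The median log2 fold change of the 10 was 0.40, with 6 positive, beside a median of -0.05 and 46.4% positive over all genes tested. The median was 0.84 without ApoE-/- 1 and -0.14 without ApoE-/- 3, so its sign rests on ApoE-/- 3.

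**Figure D1:**
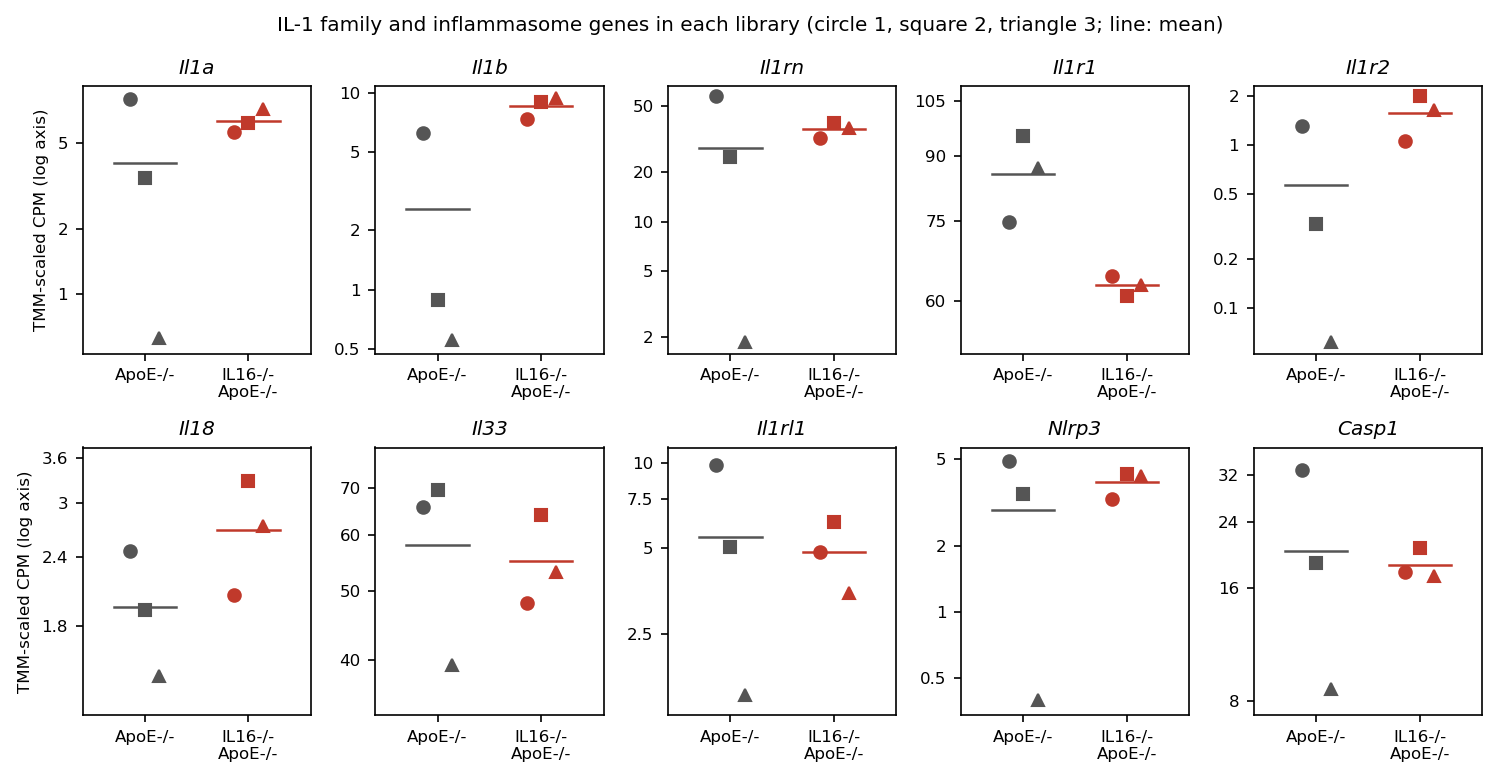
TMM-scaled CPM on a log axis for the 10 genes, grey for ApoE-/- and red for IL16-/-ApoE-/- libraries, with circles, squares and triangles for libraries 1, 2 and 3 and a line at the mean. The double mutants lie between 7.33 and 9.40 CPM of Il1b, above all 3 ApoE-/- libraries, and between 60.9 and 64.3 CPM of Il1r1, below all of them.

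Il1b (ENSMUSG00000027398, GRCm38 chromosome 2, 129364570 to 129371139, minus strand) and Il1a (ENSMUSG00000027399, chromosome 2, 129299610 to 129309972, minus strand) are neighbours, with 54.6 kilobases between them. The 250 bases before the RefSeq start of each gene (GRCm38.p6, minus strand, chr2:129371140-129371389 for Il1b and chr2:129309973-129310222 for Il1a) are shown. In these libraries the Il1b to Il1a ratio did not overlap between the groups, without passing a threshold (exact permutation p = 0.10, 0.20 adjusted over the 6 ratios). The Nlrp3 window before its upstream start (plus strand, chr11:59541319-59541568) is shown because the pattern of Nlrp3 was the closest to that of Il1a within the family. Capitals mark matches to a TATA box (TATAAA), AP-1 (TGANTCA) or the NF-kB consensus.
Il1b: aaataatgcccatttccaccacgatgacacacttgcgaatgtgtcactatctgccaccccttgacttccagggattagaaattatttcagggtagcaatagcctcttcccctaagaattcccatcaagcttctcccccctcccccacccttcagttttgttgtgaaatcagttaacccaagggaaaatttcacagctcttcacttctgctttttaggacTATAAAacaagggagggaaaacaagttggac
Il1a: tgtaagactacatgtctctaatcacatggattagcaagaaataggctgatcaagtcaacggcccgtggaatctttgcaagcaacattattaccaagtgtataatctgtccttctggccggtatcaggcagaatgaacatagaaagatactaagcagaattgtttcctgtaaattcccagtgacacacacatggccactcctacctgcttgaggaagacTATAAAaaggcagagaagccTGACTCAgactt
Nlrp3: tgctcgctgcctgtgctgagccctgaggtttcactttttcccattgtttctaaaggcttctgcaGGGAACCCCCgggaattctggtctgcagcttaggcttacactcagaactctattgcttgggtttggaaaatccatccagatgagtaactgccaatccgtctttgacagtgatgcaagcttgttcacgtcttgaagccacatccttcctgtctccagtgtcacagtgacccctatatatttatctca
Of the 5 motifs searched on both strands, Il1b held the TATA box at 31 bases before the start, and Il1a a TATA box at 32 bases and an AP-1 match at 12 bases. The Nlrp3 window held 1 NF-kB consensus match, on the minus strand, 186 bases before the start. The window before the other Nlrp3 start (chr11:59542436-59542685), not shown, held none of the 5 motifs. Among 32851 such windows of mouse genes, 12.4% held the TATA box, 6.75% AP-1, 3.90% the NF-kB consensus, 9.56% a C/EBP-type TTGCNNAA and 2.98% the interferon response motif. None of the marked matches overlapped another, and a match describes these letters and not a bound factor. The part of these windows in the transcript levels was not tested.

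Il1b, the secreted IL-1 ligand made mainly by myeloid cells, was at 6.23, 0.889 and 0.559 CPM in ApoE-/-, against 7.33, 8.94 and 9.40 CPM in IL16-/-ApoE-/-. The groups did not overlap, but ApoE-/- 1 lay near the double mutants and the other 2 far below them. The log2 fold change was 1.74 (SE 0.90, 95% interval -0.41 to 3.89, n = 3 and 3), a 3.34-fold difference, and the adjusted p was 0.390 by edgeR's quasi-likelihood test. Without ApoE-/- 1 the log2 fold change was 3.56 and passed (edgeR adjusted p = 0.00255). Without ApoE-/- 2 it was 1.33 and without ApoE-/- 3 it was 1.26. The antisense transcript Il1bos, which overlaps Il1b, held 17 counts over the ApoE-/- libraries and 43 over the double mutants. The sources used here do not say how counting used strand, and reads of the 2 cannot be told apart.

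Il1a, the IL-1 ligand that is active without caspase-1 cleavage, was at 8.02, 3.46 and 0.621 CPM in ApoE-/-, against 5.64, 6.19 and 7.21 CPM in IL16-/-ApoE-/-. Here ApoE-/- 1 was the highest of all 6 libraries and ApoE-/- 3 the lowest. The log2 fold change was 0.65 (SE 0.79, 95% interval -1.24 to 2.55, n = 3 and 3, edgeR adjusted p = 0.700). It was 1.64 without ApoE-/- 1 and 0.14 without ApoE-/- 3. Il1a overlaps the opposite-strand transcript Gm14023, which held 107 counts over the ApoE-/- libraries and 104 over the double mutants. Reads of Il1a and Gm14023 cannot be told apart either. Il1rn (ENSMUSG00000026981, chromosome 2, 24336853 to 24351494, plus strand), the receptor antagonist, was at 57.5, 24.7 and 1.88 CPM in ApoE-/-, against 32.1, 39.4 and 37.0 CPM in IL16-/-ApoE-/-. The ApoE-/- libraries thus spanned 30.6-fold, on either side of the double mutants, which spanned 1.23-fold. Its log2 fold change was 0.37 (SE 0.95, 95% interval -1.92 to 2.66, edgeR adjusted p = 0.867), and it turned to -0.19 without ApoE-/- 3. The secreted and intracellular forms of the antagonist are not separated in counts per gene.

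Il18 and Il33 spanned 1.68-fold and 1.77-fold over the ApoE-/- libraries. Il18 (ENSMUSG00000039217, chromosome 9, 50554827 to 50581840, plus strand) was at 2.46, 1.92 and 1.47 CPM in ApoE-/-, against 2.05, 3.27 and 2.72 CPM in IL16-/-ApoE-/-, with overlapping groups. The log2 fold change was 0.46 (SE 0.36, 95% interval -0.41 to 1.33, edgeR adjusted p = 0.557), and -0.04 with the trend of counts on transcript length removed. Il18 overlaps the opposite-strand gene Bco2, which held 297 counts in ApoE-/- and 203 in the double mutants. Il33 (ENSMUSG00000024810, chromosome 19, 29925114 to 29960718, plus strand) was at 65.8, 69.4 and 39.3 CPM in ApoE-/-, against 48.0, 64.1 and 53.2 CPM in IL16-/-ApoE-/-. All double mutant libraries of Il33 lay within the range of ApoE-/-, and the log2 fold change of -0.08 had the interval -0.68 to 0.52 (SE 0.25, edgeR adjusted p = 0.895). ApoE-/- 3, the lowest library for Il33, was also the lowest for 7 of the 8 fibroblast markers, which summed to 5163, 6336 and 3850 CPM in ApoE-/- 1, 2 and 3 and to 4971 to 5607 CPM in IL16-/-ApoE-/-. Whether these markers have a part in the Il33 values was not tested.

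Il1r1 (ENSMUSG00000026072, chromosome 1, 40225080 to 40317257, plus strand), the signalling receptor for both IL-1 cytokines, was at 74.8, 95.3 and 86.9 CPM in ApoE-/-, against 64.3, 60.9 and 62.8 CPM in IL16-/-ApoE-/-. Every double mutant library lay below every ApoE-/- library, and the spread was 85.7 ± 10.3 against 62.6 ± 1.74 CPM (SD, n = 3 each). The log2 fold change was -0.45 (SE 0.15, 95% interval -0.80 to -0.10, n = 3 and 3), with an unadjusted p of 0.0197 and an adjusted p of 0.227 by edgeR's quasi-likelihood test. It was -0.54 without ApoE-/- 1, where it passed (edgeR adjusted p = 0.0129), and -0.28 with the length trend removed. Il1r1 has the longest transcripts of the 10 genes, a median of 5326 bases. Smooth muscle markers, which summed to 4298, 19146 and 27474 CPM in ApoE-/- 1, 2 and 3 and to 8623 to 9766 CPM in IL16-/-ApoE-/-, were also higher in ApoE-/- 2 and 3, though not in ApoE-/- 1, and their part in the receptor's values was not tested.

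Il1r2 (ENSMUSG00000026073, chromosome 1, 40074079 to 40125231, plus strand), the decoy that binds IL-1 without signalling, was at 1.31, 0.330 and 0.0621 CPM in ApoE-/-, against 1.06, 1.99 and 1.63 CPM in IL16-/-ApoE-/-. It had the lowest mean CPM of the 10 genes in either group, with 5 counts in ApoE-/- 3 and 110 in ApoE-/- 1. The log2 fold change was 1.45 (SE 0.98, 95% interval -0.90 to 3.80, edgeR adjusted p = 0.495), and 2.99 without ApoE-/- 1, where it passed (edgeR adjusted p = 0.0437). Without ApoE-/- 1, 3 of the 10 genes passed (Il1b and Il1r2 higher, Il1r1 lower), against 25.9% of all genes tested in that fit (13.1% higher, 12.8% lower), so the members were called about as often as other genes. Il1rl1 (ENSMUSG00000026069, chromosome 1, 40429570 to 40465415, plus strand), which encodes the IL-33 receptor ST2 and its soluble form, was at 9.89, 5.05 and 1.52 CPM in ApoE-/-, against 4.86, 6.21 and 3.49 CPM in IL16-/-ApoE-/-. Its groups overlapped (log2 fold change -0.18, SE 0.64, 95% interval -1.72 to 1.37, edgeR adjusted p = 0.910), and the sign turned without ApoE-/- 1 (0.56).

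The 3 receptors sit in a cluster of 6 receptor genes on chromosome 1 (40074079 to 40551705, 478 kilobases) with Il1rl2, Il18r1 and Il18rap. The neighbours, unlike Il1r1, had overlapping groups. Il18r1, the binding chain of the IL-18 receptor, was at 7.10, 4.07 and 0.795 CPM in ApoE-/-, against 4.17, 1.55 and 1.72 CPM in IL16-/-ApoE-/-. Il18rap, its second chain, was at 6.43, 2.54 and 0.758 CPM against 2.00, 2.75 and 2.35 CPM. Il1rl2, the IL-36 receptor, was at 9.11, 9.44 and 1.98 CPM against 6.24, 9.32 and 8.98 CPM. All 3 overlapped between the groups, and 5 of the 6 cluster genes had their lowest ApoE-/- value in library 3, Il1r1 being the exception.

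Nlrp3 (ENSMUSG00000032691, chromosome 11, 59541568 to 59566956, plus strand), the sensor, was at 4.93, 3.47 and 0.398 CPM in ApoE-/-, against 3.29, 4.30 and 4.21 CPM in IL16-/-ApoE-/-. ApoE-/- 3 stood 12.4-fold below ApoE-/- 1, and the double mutants lay between them. The log2 fold change was 0.42 (SE 0.79, 95% interval -1.47 to 2.32, edgeR adjusted p = 0.808), and -0.10 without ApoE-/- 3. Casp1 (ENSMUSG00000025888, chromosome 9, 5298517 to 5307265, plus strand), the protease that matures IL-1 beta and IL-18, was at 32.9, 18.6 and 8.62 CPM in ApoE-/-, against 17.6, 20.4 and 17.2 CPM in IL16-/-ApoE-/-. Its log2 fold change was -0.12 (SE 0.45, 95% interval -1.20 to 0.95, edgeR adjusted p = 0.909). It was 0.43 without ApoE-/- 1 and -0.49 without ApoE-/- 3, on either side of 0.

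**Figure D2:**
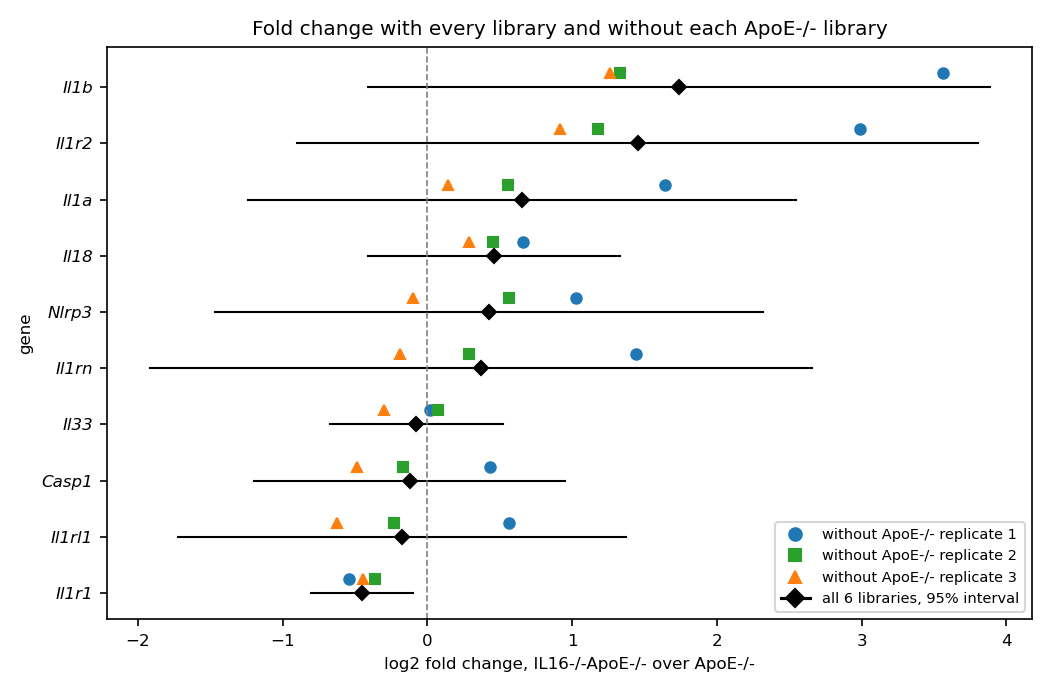
Log2 fold change of each gene, IL16-/-ApoE-/- over ApoE-/-, with all 6 libraries (black diamond, line for the 95% interval) and without ApoE-/- 1, 2 or 3 (coloured points). Il1b and Il1r2 lie farther right without ApoE-/- 1 (3.56 and 2.99), and Il1r1 is the 1 gene whose interval with all libraries does not reach 0 (-0.80 to -0.10).

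Levels between genes were compared as CPM per kilobase of transcript. In the double mutants Il1rn had the highest level (26.7 ± 2.73 CPM per kilobase, SD, n = 3), with a range that overlapped that of Il33 (21.7 ± 3.22). Casp1 (12.3 ± 1.17) and Il1r1 (11.8 ± 0.327) followed without overlap with Il33, and overlapped each other. Il1b came next at 6.31 ± 0.804, clear of the genes on either side, then Il18 (3.43 ± 0.785) and Il1a (3.22 ± 0.403), which overlapped. Il1rl1, Il1r2 and Nlrp3 were lowest, at 1.26 ± 0.353, 1.10 ± 0.332 and 0.990 ± 0.140, each overlapping the next. In ApoE-/- the only neighbours in the order with separate ranges were Casp1 (13.4 ± 8.13) and Il18 (2.50 ± 0.636). Il1b was the seventh in that group, at 1.89 ± 2.35 CPM per kilobase, below Il18 and Il1a.

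Ratios of 2 members within a library do not depend on the scaling between libraries. Il1b to Il1a, as counts per kilobase, was 1.13, 0.375 and 1.31 in ApoE-/- 1, 2 and 3 and 1.89, 2.10 and 1.90 in the double mutants. Each double mutant library held more of Il1b relative to Il1a than any ApoE-/- library, a mean difference of 1.25 in log2 units, or 0.69 without ApoE-/- 2. Il1b to Nlrp3 was 3.71, 0.751 and 4.12 in ApoE-/- and 6.52, 6.09 and 6.55 in the double mutants, also without overlap, and the difference was 1.5, or 0.71 without ApoE-/- 2. Nlrp3 to Casp1 was 0.0565, 0.0701 and 0.0174 in ApoE-/- and 0.0705, 0.0794 and 0.0921 in the double mutants, a separation that rests on the gap between 0.0701 and 0.0705. The difference was 0.97 in log2 units, or 0.35 without ApoE-/- 3. For these 3 ratios the exact two-sided permutation test gave p = 0.10, the smallest that 3 against 3 allows, and 0.20 adjusted over the 6 ratios.

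The other ratios overlapped. The antagonist to agonist ratio, Il1rn to Il1b, was 9.22, 27.8 and 3.35 in ApoE-/- and 4.38, 4.41 and 3.93 in the double mutants, which lay close together inside the wide range of ApoE-/- (difference -1.17 in log2 units, exact permutation p = 0.40). Without ApoE-/- 2 that difference was -0.39, and without ApoE-/- 3 it was -1.92. The decoy to receptor ratio, Il1r2 to Il1r1, was 0.0659, 0.0130 and 0.00268 in ApoE-/- and 0.0618, 0.123 and 0.0974 in the double mutants (difference 2.78, exact permutation p = 0.20), and the difference ran from 1.63 without ApoE-/- 3 to 3.94 without ApoE-/- 1. The ligand to receptor ratio, Il33 to Il1rl1, was 10.1, 20.9 and 39.4 against 15.0, 15.7 and 23.1 (difference -0.20, exact permutation p = 0.80), and the sign turned without ApoE-/- 3 (0.28). Over the 6 ratios their adjusted p were 0.48, 0.30 and 0.80.

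**Figure D3:**
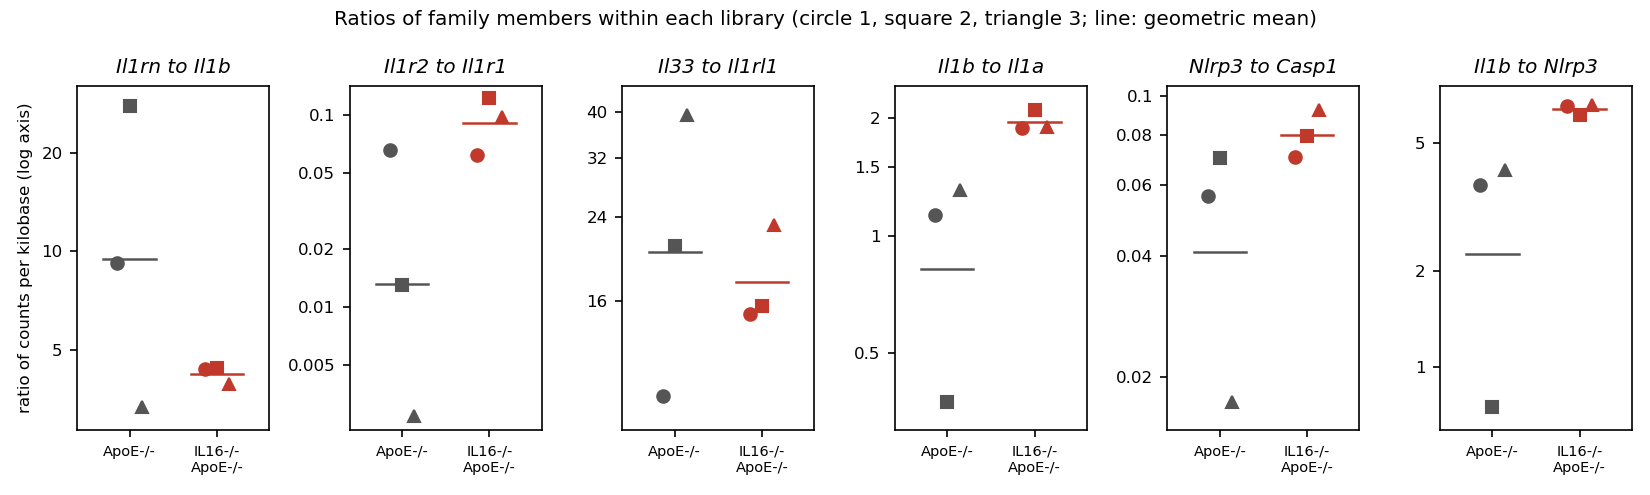
Ratio of counts per kilobase of 2 members within each library, on a log axis, grey for ApoE-/- and red for IL16-/-ApoE-/-, with a line at the geometric mean. Il1b to Il1a lies at 1.89 to 2.10 in the double mutants and at 0.375 to 1.31 in ApoE-/-, and Il1rn to Il1b spans 3.35 to 27.8 in ApoE-/- against 3.93 to 4.41.

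The members varied far more among ApoE-/- libraries than among double mutants. In all 10 the SD of log2 CPM was larger in ApoE-/-, as it was in 81.9% of all genes tested, with a median SD of 1.58 against 0.20 for the members and of 0.508 against 0.165 for all genes. The highest ApoE-/- library was over 10-fold above the lowest for 5 members (Il1a, Il1b, Il1rn, Il1r2 and Nlrp3), against 10.6% of all genes, while in the double mutants the largest such ratio was 1.88, for Il1r2. ApoE-/- 1 was the highest and ApoE-/- 3 the lowest ApoE-/- library for 8 of the 10 members, all but Il1r1 and Il33, against 24.4% of all genes. Taken alone, ApoE-/- 3 was the lowest for 9 members (33.6% of all genes) and ApoE-/- 1 the highest for 8 (41.5%). ApoE-/- 1 was likewise the highest and ApoE-/- 3 the lowest for 12 of 12 macrophage and monocyte markers. They summed to 5192, 2563 and 443 CPM in ApoE-/- 1, 2 and 3 and to 4720 to 6687 CPM in IL16-/-ApoE-/-. None was at 0 in any library. Lyz2 alone made up 3561, 1750 and 259 CPM of the sums in ApoE-/-, and 3527 to 5095 CPM in the double mutants. Of the 12 markers 9 had positive and 3 negative fold changes, with a median of 0.42, and edgeR called 0. For 2 of the 12, Cd68 and Tyrobp, all double mutants lay above all ApoE-/- libraries, as for Il1b, against 14.9% of all genes. In bulk tissue, fewer cells of a type and less RNA per cell cannot be told apart, and the part of the macrophage markers in the members' values was not tested.

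Set against the mean log2 CPM of those 12 markers, most of the spread of Il1a and Nlrp3 was no longer seen. Il1a lay 3.80 to 4.35 log2 units below the marker mean in all 6 libraries, a range of 0.55 where its own log2 CPM had ranged over 3.62. Nlrp3 lay 4.20 to 4.95 units below it, a range of 0.75 in place of 3.53. Il1b kept a separation, at -4.39, -6.13 and -4.49 relative to the markers in ApoE-/- 1, 2 and 3 and at -3.64, -3.80 and -3.42 in the double mutants. Il1r2 also lay above ApoE-/- on this scale (-6.39 to -5.92 against -7.47 to -6.61), whereas Casp1 (-2.61 to -2.38 against -1.998 to -0.62) and Il1rl1 (-4.84 to -4.22 against -3.73 to -3.10) lay below it. Il1rn overlapped between the groups, with a range of 1.61 in place of 4.91. Il1r1, Il33 and Il18 ranged more widely relative to the markers (3.74, 2.56 and 2.57) than by themselves (0.65, 0.82 and 1.14), and Casp1 about as widely (1.99 and 1.93). These are descriptions over 6 libraries that share the markers and the scaling, and were given no test.

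**Figure D4:**
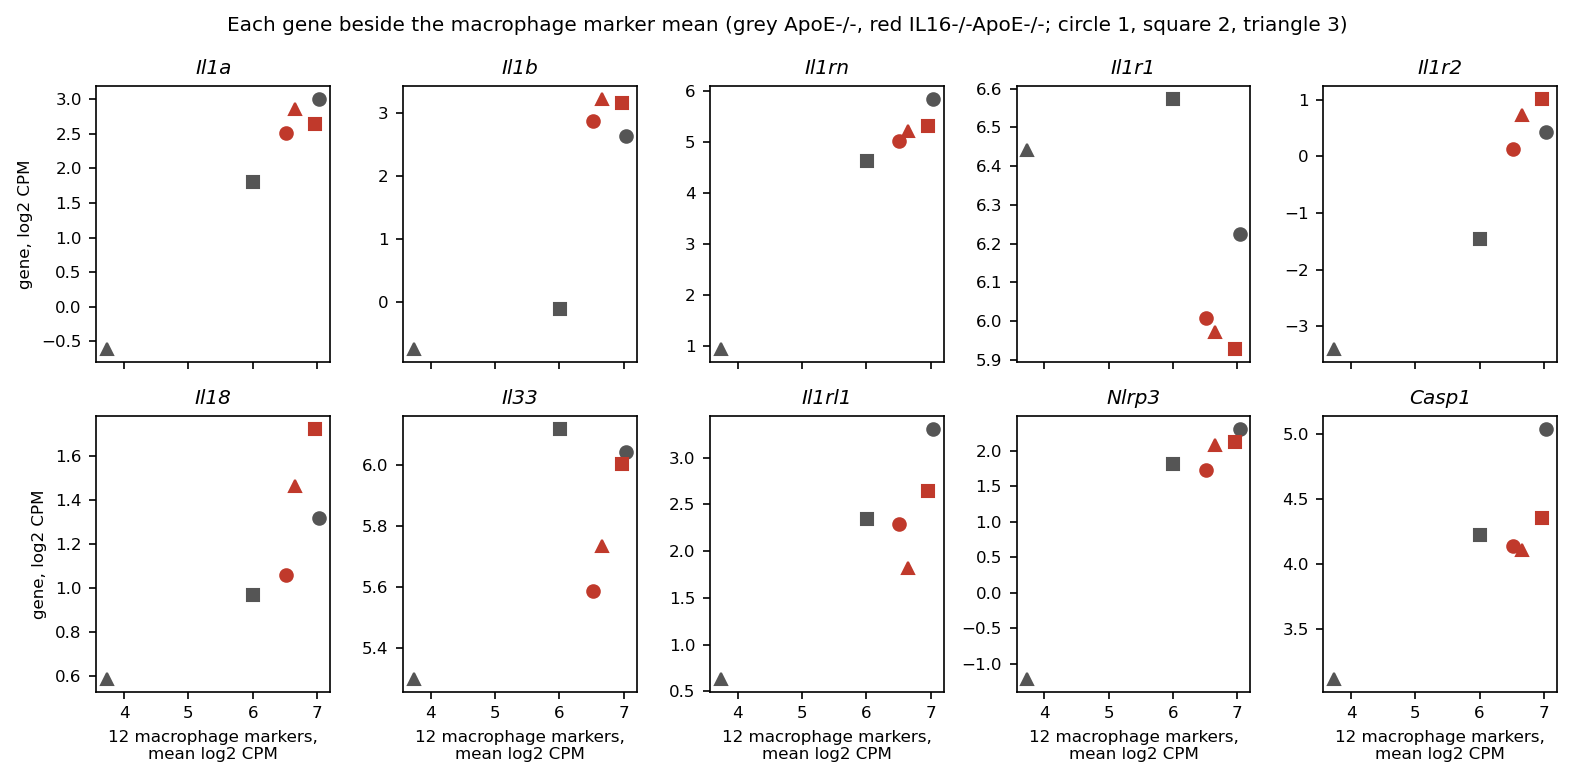
Log2 CPM of each gene against the mean log2 CPM of 12 macrophage and monocyte markers in the same library, grey for ApoE-/- and red for IL16-/-ApoE-/-. ApoE-/- 3 lies far left in each panel (marker mean 3.74), and the double mutants lie at 6.51 to 6.97, near ApoE-/- 1 (7.04). The double mutants are higher than every ApoE-/- library for Il1b and lower than every one for Il1r1.

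Other cell types known to make these cytokines did not follow 1 pattern. The 7 dendritic cell markers summed to 132, 123 and 39.7 CPM in ApoE-/- and to 205 to 223 CPM in IL16-/-ApoE-/-. Of these markers 6 had positive fold changes and 1 a negative one, with a median of 1.33. EdgeR called 1 of them higher (Cd209a), against 1.14% of all genes, and 0 with library totals. The neutrophil genes S100a8 and S100a9 were at 0.783 to 1.05 and 0.311 to 1.54 CPM in ApoE-/-, against 1.98 to 6.03 and 4.79 to 12.6 CPM in IL16-/-ApoE-/-, without overlap, as for Il1b (log2 fold changes 2.04 and 2.89, edgeR adjusted p = 0.120 and 0.124). DESeq2 called both higher, against 6.23% of all genes. Of the 10 neutrophil markers 9 were tested, 7 with positive and 2 with negative fold changes (Mpo -1.90 and Elane -0.84). For 4 of the 9 all double mutants lay above all ApoE-/- libraries, against 14.9% of all genes. EdgeR called 0 of the list, and 2 had an unadjusted p under 0.05, both higher (8.87% of all genes). The list, in which Csf3r made up 22.7 of the 26.7 CPM of ApoE-/- 1, summed to 6.05 to 26.7 CPM in ApoE-/- and to 24.8 to 47.0 CPM in IL16-/-ApoE-/-. Its defining surface marker Ly6g held 9, 14 and 4 counts in ApoE-/- and 0 in each double mutant, which allows up to 0.0630 to 0.0698 CPM (3 counts a library, counting error only). Mast cell markers, which mark cells rich in ST2, summed to 104, 45.1 and 26.0 CPM in ApoE-/- and to 74.5 to 97.7 CPM in IL16-/-ApoE-/-. Kit, which other cells also express, made up 20.5 of the 26.0 CPM in ApoE-/- 3, where the other 7 markers were at their lowest, such as Cma1 (21.0, 7.41 and 0.547 CPM) and Tpsb2 (14.7, 7.27 and 0.385 CPM). The skin keratins Krt5 and Krt14 were at 18.2 and 24.7 CPM in ApoE-/- 1, at 29.3 and 35.4 CPM in ApoE-/- 2 and at 0 in ApoE-/- 3, against at most 0.303 and 0.415 CPM in IL16-/-ApoE-/-. The other 4 of the 6 surface epithelium markers (Krt8, Krt18, Epcam and Cdh1) had positive fold changes, and the list of 6 a median of 0.35. EdgeR called 0 of them, and 2 (Krt5 and Krt14) had an unadjusted p under 0.05, both lower (7.03% of all genes). Keratinocytes are known to make Il1a, Il1rn and Il33. The part of any of these cells in the members' values was not tested.

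Genes around the family were read from lists. Among 13 other IL-1 family ligands, receptors and binding proteins, 7 could be tested, 0 passed in edgeR, 0 had an unadjusted p under 0.05, and DESeq2 and limma-voom, with or without sample weights, also called 0. Their log2 fold changes had a median of -0.39, which turned to 0.52 without ApoE-/- 1. The smallest p belonged to the inhibitory receptor Sigirr (log2 fold change 0.68, SE 0.37, edgeR adjusted p = 0.407) and the shared co-receptor Il1rap (-0.39, SE 0.28, edgeR adjusted p = 0.508). The IL-18 binding protein Il18bp, which neutralises IL-18, was at 52.3, 26.4 and 7.10 CPM in ApoE-/-, against 41.5, 56.0 and 46.0 CPM in IL16-/-ApoE-/-. The IL-36 ligands Il1f6 and Il1f8, and also Il1f10, had no count in any library. Il1f9, another IL-36 ligand, was tested and held 81, 10 and 12 counts in ApoE-/- and 4, 30 and 9 in IL16-/-ApoE-/-. Its log2 fold change was -0.43 (SE 1.08, edgeR adjusted p = 0.862). The IL-36 antagonist Il1f5 fell under the filter, with 22 and 13 counts in ApoE-/- 1 and 2 and none in the other 4. Those 4 libraries had at most 0.415 CPM of Krt14, and a link between the 2 genes was not tested.

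Of 18 other inflammasome and pyroptosis genes, all tested, 0 passed in edgeR. At an unadjusted p under 0.05 there was 1, lower, against 7.03% of all genes. The median log2 fold change was 0.20, with 16 positive values (46.4% of all genes positive). The median was 0.69 without ApoE-/- 1, where 5 genes passed as higher and 1 as lower (13.1% and 12.8% of all genes), and -0.13 without ApoE-/- 3. The gene under 0.05 was Nek7, the kinase that licenses NLRP3, at 120, 146 and 151 CPM in ApoE-/-, against 90.8, 97.5 and 95.5 CPM in IL16-/-ApoE-/- (log2 fold change -0.56, SE 0.16, edgeR adjusted p = 0.181). Its groups did not overlap, with the double mutants lower (11.5% of all genes). DESeq2 and limma-voom with sample weights called it lower, against 2.33% and 7.5% of all genes. The channel gene Panx1 was next (0.97, SE 0.49, edgeR adjusted p = 0.382), called higher in limma-voom with sample weights (9.39% of all genes). Pycard, the adaptor ASC, was at 16.5, 7.26 and 6.03 CPM against 11.4, 15.5 and 13.1 CPM, and Gsdmd, the pore-forming gasdermin D, at 33.9, 18.7 and 12.4 CPM against 22.0, 27.2 and 24.8 CPM. Casp4, the non-canonical caspase next to Casp1 on chromosome 9, had a log2 fold change of -0.01 (SE 0.31). For 16 of the 18 genes, too, ApoE-/- 1 was the highest and ApoE-/- 3 the lowest ApoE-/- library. Counts of Naip2, Naip5, Naip6, Nlrp1a and Nlrp1b are uncertain, since near-identical copies can share reads.

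Of 18 genes of IL-1 receptor signalling, 0 passed in edgeR. At an unadjusted p under 0.05 there was 1, lower, against 7.03% of all genes. The median log2 fold change was -0.17, with 16 negative and 2 positive values (46.4% of all genes positive). Without ApoE-/- 1, Irak2 and Map3k7 passed as lower, against 12.8% of all genes. The adaptor Tab3, which carries the signal to the kinase TAK1, was at 17.6, 15.9 and 15.9 CPM in ApoE-/-, against 11.9, 10.7 and 11.6 CPM in IL16-/-ApoE-/- (log2 fold change -0.53, SE 0.16, edgeR adjusted p = 0.200). DESeq2 called it lower, against 2.33% of all genes. Chuk, the kinase IKK alpha, had a log2 fold change of -0.26 (SE 0.13, edgeR adjusted p = 0.376). Limma-voom called 0 of the list, with or without sample weights. Myd88 and Irak4, the first steps after the receptor, had values of -0.12 (SE 0.22) and 0.17 (SE 0.40).

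The list of IL-1 and NF-kB response genes had the highest median of the 5 lists, 0.81, with 13 of 16 tested genes positive. Higher medians were found for the markers of endothelium (0.89), dendritic cells (1.33), T and B cells (1.38), neutrophils (1.73) and kidney tubule (13.0). Lower ones were found for macrophages (0.42), mast cells (0.42), adipocytes (0.69), surface epithelium (0.35), fibroblasts (-0.12) and smooth muscle (-1.05). In 9 of the 16 response genes all double mutant libraries lay above all ApoE-/- libraries, against 14.9% of all genes, and in 0 below. By edgeR 0 passed and 5 had an unadjusted p under 0.05, all higher, against 8.87% of all genes. DESeq2 called 4 higher (Cxcl1, Cxcl2, Sele and Vcam1), against 6.23% of all genes. Limma-voom called 2 higher (1.95% of all genes) and limma-voom with sample weights 8 (9.39% of all genes). Without ApoE-/- 1 edgeR called 8 of 16 higher, against 13.1% of all genes. EdgeR also called 1 of the list under other settings: Cxcl1 with upper-quartile factors (1.25% of all genes called higher), with no filter (0.828%), with a filter at 1 CPM in 3 libraries (1.53%) and without ApoE-/- 3 (0.802%), and Sele with library totals (1.37%). Cxcl1, a neutrophil attractant that IL-1 induces, had a log2 fold change of 1.67 (SE 0.28, edgeR adjusted p = 0.0529) and Sele, the endothelial selectin, of 1.48 (SE 0.26, edgeR adjusted p = 0.0573). Il6 was at 3.13, 1.74 and 1.68 CPM in ApoE-/-, against 4.29, 3.63 and 5.07 CPM in IL16-/-ApoE-/- (0.99, SE 0.37, edgeR adjusted p = 0.274). Nfkbia, the inhibitor that NF-kB induces, did not separate the groups (46.9, 31.0 and 33.4 CPM against 34.1, 33.4 and 36.2 CPM). These genes answer many signals besides IL-1. Endothelial markers were higher in every double mutant library for 7 of 7 genes, against 14.9% of all genes. Their summed levels were 612 to 1053 CPM in ApoE-/- against 1224 to 1264 CPM in IL16-/-ApoE-/-. EdgeR called 0 of the 7, and 3 had an unadjusted p under 0.05, all higher (8.87% of all genes). The part of the endothelial markers in the response genes was not tested.

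Among 10 genes of cells that respond to IL-33, 7 were tested and 0 passed in edgeR. At an unadjusted p under 0.05 there was 1, lower, against 7.03% of all genes. Limma-voom with sample weights called 1 lower (Rora), against 7.5% of all genes. EdgeR called the same gene lower without ApoE-/- 1, against 12.8% of all genes. DESeq2 and limma-voom called 0. Rora, a transcription factor of group 2 innate lymphoid cells that many other cells also express, was at 41.5, 72.6 and 66.9 CPM in ApoE-/-, against 34.0, 33.7 and 39.7 CPM in IL16-/-ApoE-/- (log2 fold change -0.75, SE 0.23, edgeR adjusted p = 0.210). Il2ra, the high-affinity IL-2 receptor chain, was at 1.599, 1.32 and 0.149 CPM against 2.03, 3.40 and 4.07 CPM (1.63, SE 0.81, edgeR adjusted p = 0.381). Il5, which group 2 cells make on IL-33, fell under the filter, with 0 counts in each ApoE-/- library and 4, 14 and 7 in the double mutants. Il13 had no count in any library.

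**Figure D5:**
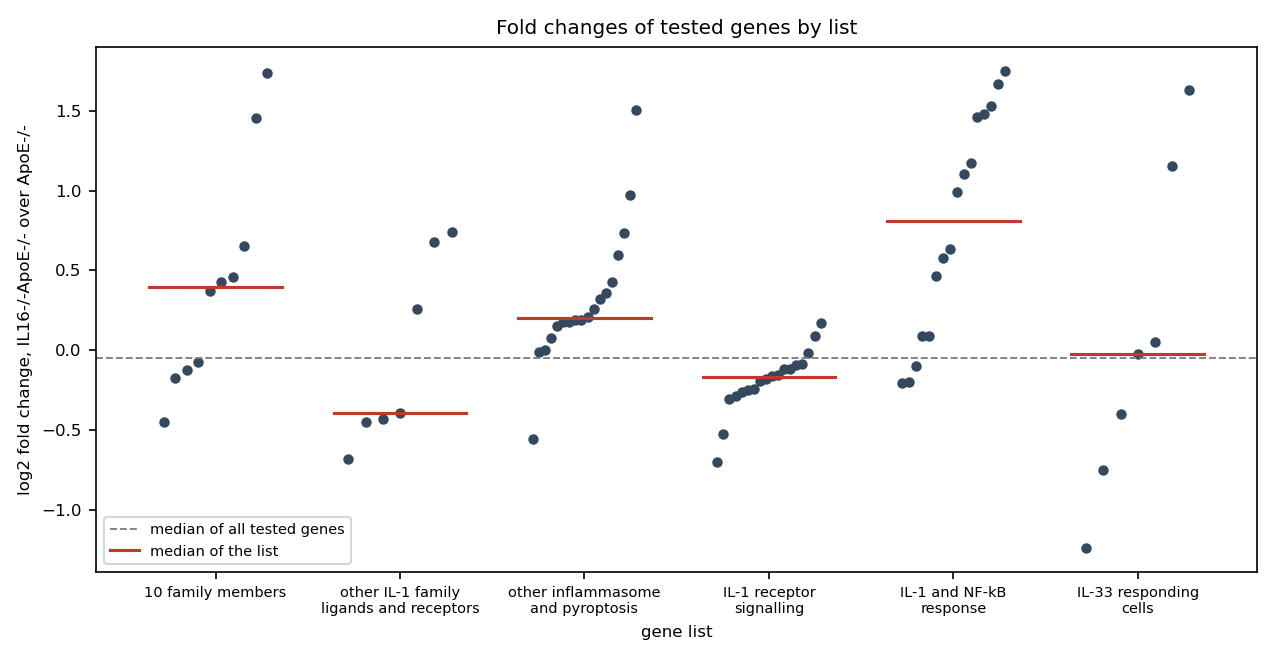
Log2 fold change, IL16-/-ApoE-/- over ApoE-/-, of each tested gene of the family and of 5 lists around it (points), with the list median in red and the median of all tested genes dashed (-0.05). The IL-1 and NF-kB response list lies highest (median 0.81) and the other IL-1 family genes lowest (median -0.39).

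Within the family, the closest patterns over the 6 libraries were those of Il1a and Nlrp3, whose centred log2 CPM differed by a root mean square of 0.27. Il1rl1 and Casp1 followed (0.29), then Il18 and Il33 (0.30). Among all tested genes of like abundance, Il1r2 was closest to Ugt1a6b (0.16), Il18 to Cdc6 (0.07), Il1rl1 to Cysltr1 (0.13) and Casp1 to Rrm2 (0.07). Il1rn was closest to the Fc receptor gene Fcgr4 (0.10) and then to Itgam (0.21), a macrophage marker of the list above. Il1b was closest to Eci3, Slc25a48 and Lst1 (0.22 to 0.26), Nlrp3 to Cst7 (0.09), Il33 to Zfp521 (0.06) and Il1r1 to Togaram1 (0.03). These nearest genes were picked from 3629 to 9317 candidates per member and are named as a description of the pattern.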

How the data were processed

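The authors deposited 1 table of raw read counts per gene for 6 libraries of mouse aorta, per the labels from polyadenylated RNA with strand kept. Cutadapt, HISAT2 and StringTie are named per the submitters' processing notes. The counting program, strand setting, build and annotation were not given in the sources used here. Symbols, positions and median transcript lengths came from GENCODE M21 (GRCm38), which matched 55141 of 55401 IDs. Promoter windows are RefSeq's (GRCm38.p6).

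Counts were filtered (filterByExpr, minimum count 10, minimum total 15), TMM-scaled and tested with edgeR 4.0.16 (quasi-likelihood, robust, two-sided) in R 4.3.3. P-values were adjusted by Benjamini-Hochberg over all tested genes, threshold 0.05. Log2 CPM used a prior count of 2. Scripts were tested on simulated data. Alternatives were other scalings and filters, DESeq2 1.42.0, limma 3.58.1 voom with and without sample weights, a replicate block, removal of the length trend (lowess span 0.3) and each library left out. Ratios had exact permutation tests.

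Named by rule were the members, Il16, Apoe, the 2 smallest p of each list without a call (Sigirr, Il1rap, Nek7, Panx1, Tab3, Chuk, Cxcl1, Sele, Rora, Il2ra) and the genes nearest in pattern within 4-fold of mean CPM. The nearest gene of Il1a is not reported here. Other list and marker genes were named after their values were seen. The members and lists were chosen with earlier results of these data known.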

Additional observations from a re-analysis of the deposited data

How the results depend on the processing

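Of 160 values of the 10 members under 16 alternatives each, 140 kept direction and side of the threshold, 5 passed it and 15 changed sign. The 5 were Il1b (3.56), Il1r1 (-0.54) and Il1r2 (2.99) without ApoE-/- 1, and Il1b (3.06) and Il1r1 (-0.54) in limma-voom with sample weights, where 2 members and 3351 genes passed. The cause was not tested. Over the whole table edgeR called 238 genes, DESeq2 1697 and limma-voom 409. Leaving out 1 library gave 0 (without any 1 double mutant) to 5231 genes (without ApoE-/- 1) and 0 to 3 members. Without any 1 double mutant, 1920 to 2042 genes and 0 members had an unadjusted p under 0.05. Sign changes had adjusted p of 0.372 to 0.997. With the length trend removed Il18 was at -0.0364. In limma-voom Il1rl1 was at 0.16 and Casp1 at 0.0758, and with sample weights at 0.12 and 0.10. With 1 library left out, log2 fold changes ran from -0.19 to 1.44 (Il1rn), -0.30 to 0.0723 (Il33, above 0 in 3 of the fits, 0.02 without ApoE-/- 1 and 0.01 without double mutant 1), -0.62 to 0.56 (Il1rl1, 0.01 without double mutant 3), -0.10 to 1.03 (Nlrp3) and -0.49 to 0.43 (Casp1). The Il33 to Il1rl1 difference ran from -0.71 to 0.28 log2 units. The other 5 ratio differences kept their sign (from 0.69 to 1.59 for Il1b to Il1a and from 0.71 to 1.94 for Il1b to Nlrp3), and division by length cancels in them. With the replicate block 0 genes and 0 members passed, and Il1rl1 was at 0.16 and Casp1 at 0.0756. There 2327 genes and 1 member had an unadjusted p under 0.05. Same-numbered libraries did not deviate together (correlations -0.04, -0.03 and -0.01), so the numbers were not taken to pair them. Il1r2 rests on 5 counts in ApoE-/- 3, which limits that value.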
